A study of Homo sapiens with 183 samples.

Results

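The genes described here are 8 transcription factors of the endoderm, namely GATA6, GATA4, HNF4A, HNF4G, FOXA1, FOXA2, FOXA3 and PDX1. They were taken by name from the 19875 gene names that each table of the series holds, with no threshold on a measured value, and all 8 names were found in every table. Their messenger RNA level is given in TPM (transcripts scaled to a fixed library total), which is corrected for transcript length, so that TPM of different genes in a library can be set side by side.

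GATA and FOXA factors open and occupy enhancers of the gut tube and its derivatives, and the FOXA proteins bind closed chromatin as pioneer factors. HNF4A and its paralogue HNF4G are orphan nuclear receptors that maintain liver, intestinal and pancreatic epithelial gene expression. PDX1 specifies the pancreas and duodenum, and in pancreatic ductal adenocarcinoma GATA6, HNF4A and PDX1 are known as factors of the classical subtype, whereas the basal-like subtype is known for TP63 and KRT5.

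The study asked how the zinc finger factor KLF5 and the AAA+ ATPases RUVBL1 and RUVBL2 act on lineage identity, and 183 RNA-seq libraries from 9 human cancer cell lines were measured in 59 groups. Knockouts were made in the pancreatic lines AsPC-1, SUIT-2, CFPAC-1, T3M-4 and BxPC-3, in bulk populations of Cas9-expressing cells infected with guide RNAs against KLF5, RUVBL1, RUVBL2, CDK1, RPA3 (sgRpa3), SERPINB5 or CHD4, or with control guides (sgRosa). CB-6644, an inhibitor of the RUVBL1/2 ATPases, was given for 24 h against DMSO to AsPC-1 and T3M-4 cells that stably carried an empty vector (EV), RUVBL1 A62T or RUVBL2 dF109, the last pair being inhibitor-resistant variants. The same treatment was given to unmodified T84 (colorectal), A375 (melanoma), H1048 (small cell lung cancer of the tuft cell-like type) and RH30 (alveolar rhabdomyosarcoma) cells.

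All knockout groups, sgRosa included, were collected on day 5. AsPC-1 experiment 1 had 2 sgRosa and 6 sgKLF5 libraries. AsPC-1 experiment 2 had 4 libraries each of sgRosa, sgRUVBL1 and sgSERPINB5. AsPC-1 experiment 3 had 4 each of sgRosa, sgKLF5, sgRUVBL1 and sgRUVBL2 and 2 each of sgCDK1 and sgRpa3, and a separate AsPC-1 experiment had 4 sgCHD4 and 4 sgRosa libraries. SUIT-2 had 4 sgRosa and 4 sgKLF5 libraries. CFPAC-1 had 4 sgRosa, 3 sgKLF5, 4 sgRUVBL1, 2 sgRUVBL2, 2 sgCDK1 and 2 sgRpa3 libraries. Experiment 1 in T3M-4 and in BxPC-3 each had 2 sgRosa, 4 sgKLF5 and 2 sgRpa3 libraries. Experiment 2 in T3M-4 had 4 sgRosa, 4 sgKLF5, 3 sgRUVBL1, 4 sgRUVBL2, 2 sgCDK1 and 2 sgRpa3 libraries, and BxPC-3 differed from it by 4 sgRUVBL1 and 3 sgRUVBL2 libraries. In AsPC-1 and T3M-4 each of EV, A62T and dF109 had 3 CB-6644 libraries and 1 DMSO library, and the 3 DMSO libraries of a line were used together as the control. T84, A375, H1048 and RH30 each had 4 CB-6644 and 4 DMSO libraries. The study used a pair of independent guides for KLF5, RUVBL1, RUVBL2, SERPINB5 and sgRosa. Its legends call the KLF5, RUVBL1 and RUVBL2 knockouts and their sgRosa controls biological replicates, in lines that do not include CFPAC-1. The labels do not say which guide or culture a library came from. The p-values thus measure the spread between libraries of a group, guide differences included. For groups that the legends do not describe in this way, the spread may be technical.

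Between 11292 and 14024 genes had at least 1 TPM per library. The read depth is unknown, because TPM keeps no counts. The labelled cell types were checked with fixed markers. All 5 epithelial markers were at or above 1 TPM in the 5 pancreatic lines, T84 and H1048, all 6 basal-like markers were so in T3M-4 and BxPC-3, and RH30 had 4 of 4 muscle, A375 3 of 5 melanocyte, T84 3 of 3 colorectal and H1048 3 of 4 tuft cell markers, with 0 of 3 neuroendocrine markers. H1048 also had 5 of 6 basal-like markers. Of the 6 classical markers, T84 had 6, AsPC-1, CFPAC-1, T3M-4 and BxPC-3 had 5 and SUIT-2 had 4. The classical count thus did not set T3M-4 and BxPC-3 apart. The basal-like markers summed to 5582 to 14504 TPM in T3M-4 and 15328 to 18349 TPM in BxPC-3. In AsPC-1, SUIT-2 and CFPAC-1 they summed to at most 84.1 TPM. RUVBL1 mRNA was lower in 5 of 5 of its knockouts and RUVBL2 mRNA in 4 of 4, whereas KLF5 mRNA was lower and past the threshold in 1 of 8 and higher and past it in AsPC-1 experiment 1 (0.53, limma adjusted p = 0.0462) and T3M-4 experiment 2 (0.78, limma adjusted p = 1.73e-05). CDK1 mRNA was lower and past the threshold in 2 of 4 of its knockouts and RPA3 mRNA in 2 of 6. The differences were negative in all of them, from -1.47 to -0.10 for CDK1 and from -1.40 to -0.26 for RPA3. RPA3 mRNA did not overlap between sgRpa3 and sgRosa libraries in any comparison. In T3M-4 experiment 1 it was 22.1 and 25.6 TPM against 62.3 and 66.3 TPM and not called. An mRNA level does not measure whether a cut left a working protein. Some libraries stood apart. CFPAC-1 sgRosa replicate 2 lay closer to the sgKLF5 mean than to its own group, replicate 3 to sgCDK1 and replicate 4 to sgRUVBL2. T3M-4 experiment 2 sgRosa replicate 3 lay closer to sgCDK1, and AsPC-1 experiment 2 sgRosa replicates 2 and 3 to sgSERPINB5. The AsPC-1 EV and T3M-4 A62T DMSO libraries lay closer to A62T with CB-6644. Some sgRUVBL1, sgRUVBL2, sgSERPINB5, sgRpa3 and AsPC-1 dF109 CB-6644 libraries were also closer to another group. SUIT-2 sgRosa replicate 1, T3M-4 experiment 1 sgKLF5 replicate 2, T3M-4 experiment 2 sgRosa replicate 4, AsPC-1 experiment 3 sgRUVBL2 replicate 2, BxPC-3 experiment 2 sgRUVBL2 replicate 3 and, among the T3M-4 vector cells, EV CB-6644 replicates 1 and 3 and the EV and A62T DMSO libraries lay more than 2 times as far from their group as the median library of their fit.

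The promoters of FOXA1, FOXA3 and HNF4A, which changed in 1 direction each wherever they were called after KLF5 loss, are shown first, since KLF and SP factors are known for binding GC-rich boxes near start sites. RefSeq promoter sequences (GRCh38.p14, from 250 bases before to 50 bases after a start) matched 4 of the 8 members, and FOXA1, FOXA3 and the 2 starts of HNF4A are printed 5′ to 3′ on the strand of the gene. Capitals mark matches to CCNCNCCC on either strand, which may overlap each other.

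FOXA1 at chr14:37595200-37595499, minus strand: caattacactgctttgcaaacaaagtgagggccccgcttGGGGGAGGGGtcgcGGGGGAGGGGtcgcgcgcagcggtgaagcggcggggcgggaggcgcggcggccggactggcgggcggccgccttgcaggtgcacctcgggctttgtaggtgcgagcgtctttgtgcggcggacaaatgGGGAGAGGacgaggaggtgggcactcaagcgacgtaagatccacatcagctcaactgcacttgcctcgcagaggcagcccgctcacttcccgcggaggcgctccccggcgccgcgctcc

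FOXA3 at chr19:45864076-45864375, plus strand: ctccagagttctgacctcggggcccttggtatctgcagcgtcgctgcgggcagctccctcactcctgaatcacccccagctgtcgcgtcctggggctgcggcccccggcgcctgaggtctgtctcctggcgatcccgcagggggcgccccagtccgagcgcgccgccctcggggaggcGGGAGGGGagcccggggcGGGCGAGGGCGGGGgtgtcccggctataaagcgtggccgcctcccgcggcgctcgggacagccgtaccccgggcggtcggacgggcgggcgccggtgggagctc

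HNF4A upstream start at chr20:44355449-44355748, plus strand: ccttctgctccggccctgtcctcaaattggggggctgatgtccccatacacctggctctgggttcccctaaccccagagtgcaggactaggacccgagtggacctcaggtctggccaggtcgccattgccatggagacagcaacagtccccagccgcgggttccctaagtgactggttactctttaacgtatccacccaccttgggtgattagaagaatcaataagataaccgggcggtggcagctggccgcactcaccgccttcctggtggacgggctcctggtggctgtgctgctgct

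HNF4A downstream start at chr20:44400989-44401288, plus strand: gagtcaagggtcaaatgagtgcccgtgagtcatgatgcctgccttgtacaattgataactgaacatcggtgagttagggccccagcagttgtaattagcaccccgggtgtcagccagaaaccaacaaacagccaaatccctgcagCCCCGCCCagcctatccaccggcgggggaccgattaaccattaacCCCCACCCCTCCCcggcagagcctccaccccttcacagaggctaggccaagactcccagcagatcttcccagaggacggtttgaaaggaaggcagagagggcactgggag

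FOXA1 held 5 matches to this box, FOXA3 held 3, the downstream HNF4A start held 3 and the upstream HNF4A start held 0. The GATA6 promoter at chr18:22169339-22169638 held 3. The box is common, as 56.2% of the 35116 promoters in the table held at least 1. The forkhead motif TGTTTAC, found in 3.42% of all promoters, was in none of these 5 windows, and the GATA motif AGATAA, found in 10.3%, was in 1 of them, the upstream HNF4A window. A match is a description of letters only. The TPM are summed per gene, so that HNF4A transcripts from its upstream and downstream starts could not be told apart.

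By the annotation of hg38, GATA6 lies on chromosome 18 from 22169589 to 22202528 (plus strand), HNF4A on chromosome 20 from 44355699 to 44432845 (plus strand) and FOXA2 on the same chromosome from 22580998 to 22585455 (minus strand). FOXA1 lies on chromosome 14 from 37589552 to 37596059 (minus strand), FOXA3 on chromosome 19 from 45863989 to 45873797 (plus strand) and PDX1 on chromosome 13 from 27920000 to 27926313 (plus strand).

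In control libraries (sgRosa or DMSO) the 9 lines carried different sets of these factors. SUIT-2 had all 8 members at a mean of at least 1 TPM, AsPC-1, CFPAC-1 and T84 had 7, T3M-4, BxPC-3 and H1048 had 5, A375 had 3 and RH30 had 2. HNF4A split the lines, with none of the lowest 5 lines reaching 1 TPM and each library of the other 4 lines above 7 TPM. FOXA2 was near 0 in AsPC-1, a line with high HNF4A, and high in BxPC-3, a line with HNF4A near 0. The levels come from different tables and are given as values with no test.

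**Figure D1:**
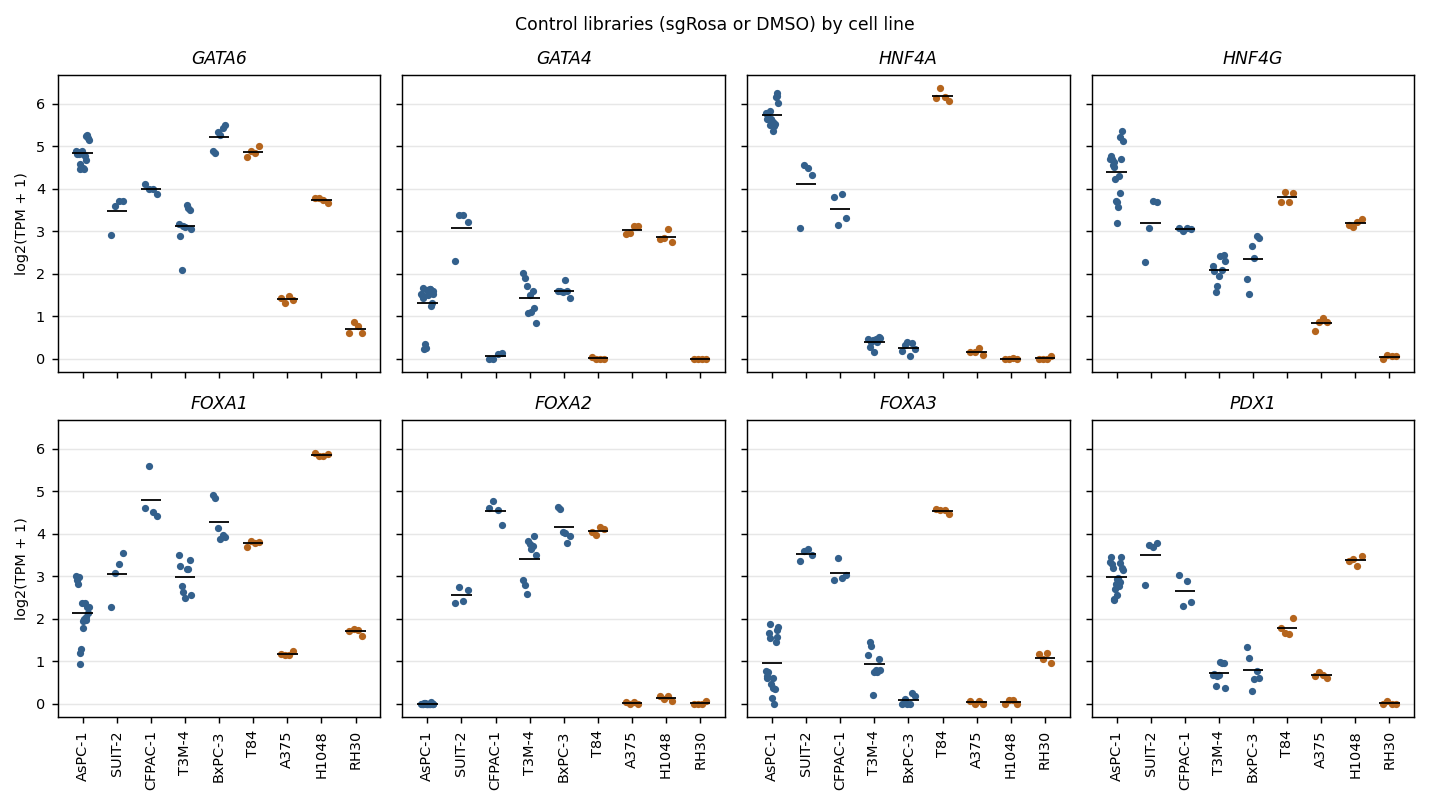
Level of each of the 8 factors in control libraries, as log2(TPM + 1) on the vertical axis, with the 9 cell lines on the horizontal axis. Each point is a library, the short line is the mean, blue marks the 5 pancreatic lines and brown the other 4. HNF4A is high in T84, AsPC-1, SUIT-2 and CFPAC-1 and close to 0 in the rest, while GATA6 is above 3 TPM in every library of the epithelial lines.

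GATA6, which sustains classical pancreatic and gut epithelial programmes, was highest in BxPC-3 at 36.5 ± 6.83 TPM (SD, n = 6), followed by T84 at 28.3 ± 2.2 TPM (n = 4) and AsPC-1 at 28.0 ± 5.33 TPM (n = 17), and the libraries of these neighbours overlapped. CFPAC-1 followed at 14.9 ± 1.06 TPM (n = 4), H1048 at 12.4 ± 0.494 TPM (n = 4), SUIT-2 at 10.4 ± 2.66 TPM (n = 4) and T3M-4 at 8.06 ± 2.47 TPM (n = 9). A375 at 1.64 ± 0.126 TPM and RH30 at 0.644 ± 0.144 TPM (n = 4 each) lay below all of them. H1048 overlapped SUIT-2 and SUIT-2 overlapped T3M-4, whereas the other gaps from AsPC-1 downwards separated every library. The highest GATA6 mean was thus in a line with all 6 basal-like and 5 of 6 classical markers at or above 1 TPM.

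GATA4, a paralogue of GATA6 with roles in the heart, gut and pancreas, was highest in SUIT-2 at 7.79 ± 2.64 TPM, A375 at 7.23 ± 0.559 TPM and H1048 at 6.30 ± 0.685 TPM (n = 4 each), which overlapped. BxPC-3 at 2.06 ± 0.302 TPM (n = 6), T3M-4 at 1.82 ± 0.796 TPM (n = 9) and AsPC-1 at 1.59 ± 0.688 TPM (n = 17) overlapped with each other below them. CFPAC-1, T84 and RH30 had at most 0.0970 TPM in any control library. In AsPC-1 the GATA4 level depended on the experiment, with control means between 1.70 and 2.08 TPM in the 4 knockout experiments and 0.224 TPM in the vector-carrying cells.

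HNF4A was highest in T84 at 71.6 ± 6.76 TPM (n = 4) and AsPC-1 at 53.1 ± 10.7 TPM (n = 17), which overlapped, and lower in SUIT-2 at 17.6 ± 6.96 TPM and CFPAC-1 at 10.8 ± 2.89 TPM (n = 4 each), which overlapped as well. T3M-4 stood at 0.327 ± 0.10 TPM (n = 9), BxPC-3 at 0.204 ± 0.102 TPM (n = 6) and A375 at 0.126 ± 0.0545 TPM (n = 4). RH30 and H1048 had at most 0.0425 TPM in any control library.

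HNF4G was less restricted than HNF4A. It was highest in AsPC-1 at 21.9 ± 9.06 TPM (n = 17), T84 at 12.9 ± 1.28 TPM, SUIT-2 at 8.83 ± 3.94 TPM and H1048 at 8.12 ± 0.476 TPM (n = 4 each), each overlapping the next. CFPAC-1 at 7.31 ± 0.179 TPM (n = 4), BxPC-3 at 4.42 ± 1.85 TPM (n = 6) and T3M-4 at 3.31 ± 0.859 TPM (n = 9) followed, and A375 at 0.789 ± 0.157 TPM and RH30 at 0.0407 ± 0.0286 TPM (n = 4 each) were lowest. The wide AsPC-1 spread came from differences between experiments, whose control means ran from 10.1 to 33.7 TPM.

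FOXA1 was highest in H1048 at 57.1 ± 1.5 TPM (n = 4), where no library overlapped the next line, CFPAC-1 at 28.3 ± 12.8 TPM (n = 4). BxPC-3 had 19.3 ± 7.11 TPM (n = 6) and T84 12.7 ± 0.588 TPM (n = 4). SUIT-2 at 7.67 ± 2.88 TPM (n = 4), T3M-4 at 7.19 ± 2.11 TPM (n = 9), AsPC-1 at 3.76 ± 1.89 TPM (n = 17) and RH30 at 2.26 ± 0.174 TPM (n = 4) each overlapped the next, and A375 was lowest at 1.27 ± 0.0720 TPM (n = 4). FOXA1 was at or above 0.926 TPM in every control library of the 9 lines.

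FOXA2 was expressed in CFPAC-1 at 22.4 ± 3.60 TPM (n = 4), BxPC-3 at 17.4 ± 4.74 TPM (n = 6), T84 at 15.8 ± 0.909 TPM (n = 4), T3M-4 at 10.2 ± 3.48 TPM (n = 9) and SUIT-2 at 4.92 ± 0.772 TPM (n = 4). H1048 had 0.106 ± 0.0450 TPM (n = 4), and A375, RH30 and AsPC-1 had at most 0.0405 TPM in any control library. FOXA3, which binds liver and gut enhancers alongside its paralogues, was highest in T84 at 22.3 ± 0.937 TPM (n = 4), above SUIT-2 at 10.6 ± 0.970 TPM and CFPAC-1 at 7.57 ± 1.49 TPM (n = 4 each). AsPC-1 at 1.14 ± 0.952 TPM (n = 17), RH30 at 1.13 ± 0.158 TPM (n = 4) and T3M-4 at 0.959 ± 0.498 TPM (n = 9) overlapped, and the remaining lines had at most 0.198 TPM in any control library. The AsPC-1 mean of FOXA3 depended on the experiment. It was 2.15 TPM in experiment 3 and 2.27 TPM in the vector-carrying cells, but 0.233 and 0.272 TPM in experiments 1 and 2 and 0.622 TPM in the CHD4 experiment. Thus AsPC-1 lacked FOXA2, BxPC-3 lacked FOXA3, and SUIT-2, CFPAC-1 and T84 carried all 3 FOXA genes.

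PDX1 was highest in SUIT-2 at 10.7 ± 3.19 TPM, H1048 at 9.36 ± 0.652 TPM (n = 4 each), AsPC-1 at 7.16 ± 1.82 TPM (n = 17) and CFPAC-1 at 5.45 ± 1.59 TPM (n = 4), each overlapping the next. T84 had 2.46 ± 0.412 TPM (n = 4), and BxPC-3 at 0.773 ± 0.469 TPM (n = 6), T3M-4 at 0.663 ± 0.255 TPM (n = 9) and A375 at 0.594 ± 0.0641 TPM (n = 4) overlapped. RH30 was at 0.0105 ± 0.0210 TPM (n = 4).

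For each member, the genes with the most similar mean log2(TPM + 1) over the 9 lines were ranked among 13462 genes. These correlations describe 9 means that share tables and scaling, and genes are not independent replicates. HNF4A was most similar to RNF128 (Pearson r = 0.993), EPS8L3 (r = 0.990) and DPP4 (r = 0.987), the last a brush-border peptidase. HNF4G was nearest to PRELID2 (r = 0.990), PCBD1 (r = 0.972) and SCX (r = 0.958). For the GATA genes, GATA6 was nearest to PPP1R13B (r = 0.955), SOWAHC (r = 0.943) and EPB41L4B (r = 0.942), and GATA4 to PRR4 (r = 0.918), VMAC (r = 0.911) and SPACA6 (r = 0.898). The FOXA genes had FOXA1 nearest to LRRC8B (r = 0.957), CLIC5 (r = 0.954) and ATP2C1 (r = 0.941), FOXA2 to RNLS (r = 0.994), IFI27 (r = 0.989) and PRSS22 (r = 0.973), and FOXA3 to SLC3A1 (r = 0.946), BCO1 (r = 0.895) and KCNE3 (r = 0.894). PDX1 was nearest to LRRC75B (r = 0.965), DMTN (r = 0.951) and COQ2 (r = 0.949).

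Loss of KLF5 was compared with sgRosa in 8 experiments over the 5 pancreatic lines, each with its own control libraries. HNF4A had a lower mean in all 4 comparisons in which it was tested, FOXA1 had a higher mean in all 8, and FOXA3 had a higher mean in all 5, while GATA6, HNF4G, FOXA2 and PDX1 had differences of either sign. Differences are log2 fold changes on the log2(TPM + 1) scale, which understates the change of genes near 1 TPM, and genes are called at an adjusted p below 0.05 in limma, corrected over all genes tested in that comparison. Of 50 tests of members with a mean of at least 1 TPM, 10 rose and 5 fell, and the other 14 member and comparison pairs were below that level. In bulk libraries fewer cells of a type and less RNA per cell cannot be told apart.

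**Figure D2:**
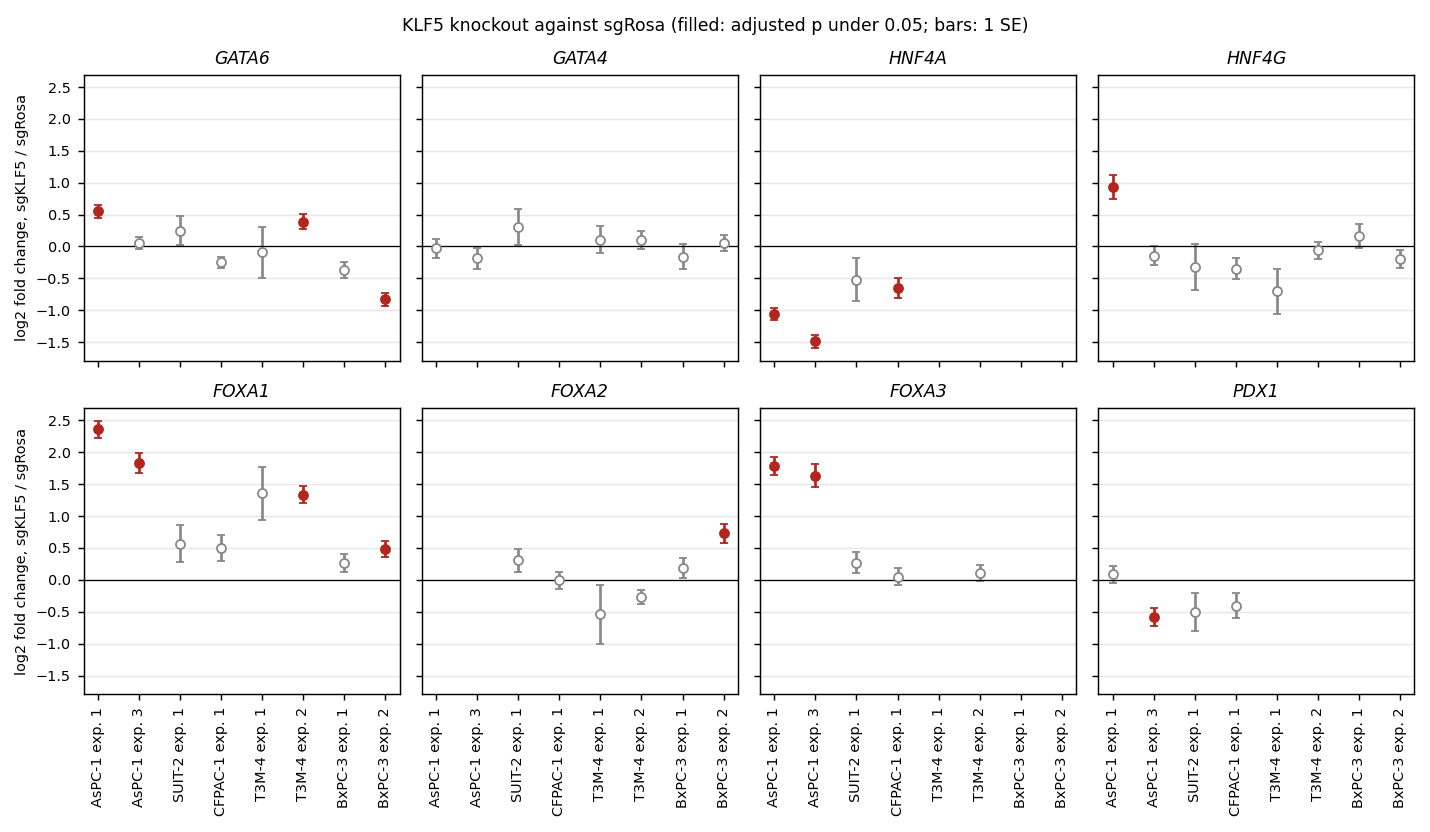
Change after KLF5 knockout for each of the 8 factors: the vertical axis is the log2 fold change of sgKLF5 against sgRosa on the log2(TPM + 1) scale. The horizontal axis gives the 8 comparisons, bars are ±1 SE, and filled red points have an adjusted p below 0.05. FOXA1 lies above 0 in all 8 comparisons, from 0.26 to 2.36, and HNF4A lies below 0 in its 4 comparisons, from -1.49 to -0.52.

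The count of called members is read against the share of all genes called. In AsPC-1 experiment 1, 5 of 7 tested members were called against 25.9% of all genes, and in experiment 3, 4 of 7 against 27.8%. In SUIT-2 0 of 8 members were called against 3.94%, with 0 at an unadjusted p below 0.05. In CFPAC-1 it was 1 of 7 against 16.2%, with 3 at an unadjusted p below 0.05. In T3M-4 experiment 1 it was 0 of 5 against 5.72%, with 1 at an unadjusted p below 0.05, and in experiment 2 it was 2 of 6 against 34.6%. In BxPC-3 experiment 1 it was 0 of 5 against 16.2%, with 1 at an unadjusted p below 0.05, and in experiment 2 it was 3 of 5 against 34.6%. The members' share lay above that of all genes mainly in AsPC-1 and in BxPC-3 experiment 2.

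**Figure D3:**
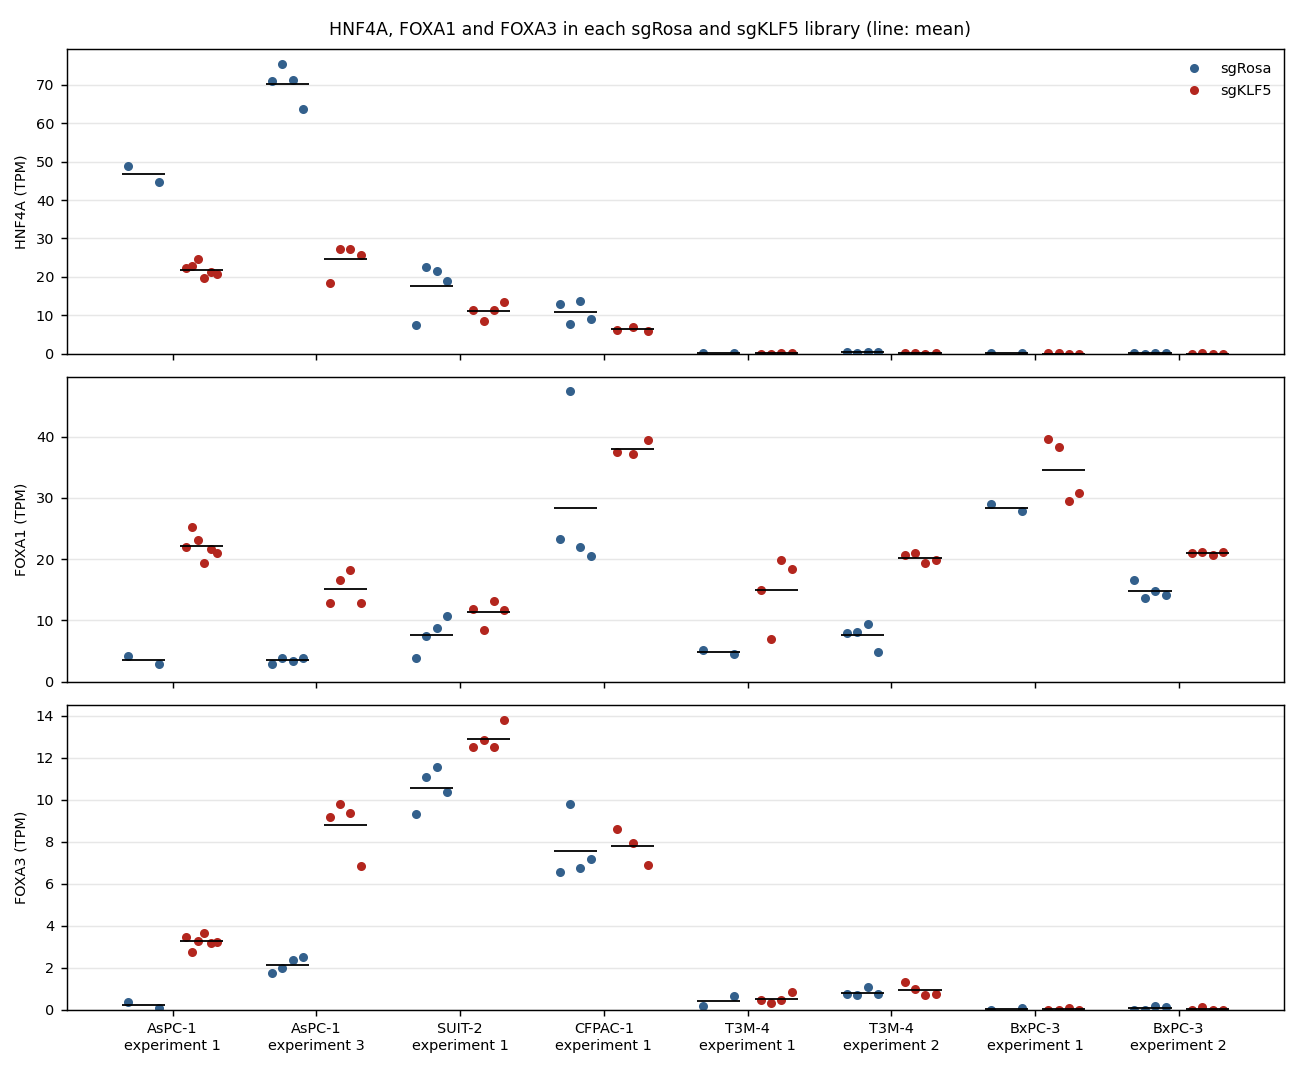
HNF4A, FOXA1 and FOXA3 in each sgRosa and sgKLF5 library: the vertical axis is TPM, the horizontal axis gives the line and experiment, and each point is a library. In AsPC-1 every sgKLF5 library is below the sgRosa libraries for HNF4A and above them for FOXA1 and FOXA3.

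HNF4A in AsPC-1 experiment 1 was 48.7 and 44.7 TPM in the sgRosa libraries and 22.3, 22.7, 24.6, 19.7, 21.2 and 20.7 TPM in the sgKLF5 libraries. It fell by 1.06 on the log2 scale (SE 0.10, limma adjusted p = 2.64e-05). In experiment 3 it was 70.8, 75.4, 71.2 and 63.6 TPM with sgRosa and 18.4, 27.2, 27.3 and 25.7 TPM with sgKLF5, a difference of -1.49 (SE 0.10, limma adjusted p = 2.72e-09). The groups did not overlap in either experiment, and the size did not differ between them past the threshold (difference 0.42, SE 0.16, limma adjusted p = 0.111), although with median-of-ratios scaling it did (0.35, limma adjusted p = 0.0429).

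In CFPAC-1, HNF4A was 13, 7.80, 13.6 and 8.96 TPM with sgRosa and 6.10, 7.05 and 5.98 TPM with sgKLF5, a difference of -0.65 (SE 0.16, limma adjusted p = 0.0137). This call is close to the threshold: it was lost in a fit of only the groups compared (adjusted p = 0.0576) and when sgRosa replicate 1 or 3 or sgKLF5 replicate 1 or 3 was left out (adjusted p between 0.0519 and 0.0571). In SUIT-2, HNF4A was 7.45, 22.7, 21.4 and 19.0 TPM with sgRosa and 11.3, 8.55, 11.5 and 13.5 TPM with sgKLF5, a difference of -0.52 (SE 0.33, limma adjusted p = 0.491). SUIT-2 sgRosa replicate 1 was the low control. Without it the HNF4A difference was -0.86 (limma adjusted p = 0.0153). HNF4A was below 1 TPM in all T3M-4 and BxPC-3 libraries and was not tested there.

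FOXA1 rose furthest in AsPC-1. In experiment 1 it was 4.20 and 2.87 TPM with sgRosa and 22.0, 25.2, 23.1, 19.4, 21.7 and 20.9 TPM with sgKLF5, a difference of 2.36 (SE 0.13, limma adjusted p = 1.04e-06). In experiment 3 it was 2.89, 3.84, 3.41 and 3.88 TPM with sgRosa and 12.8, 16.7, 18.2 and 12.9 TPM with sgKLF5, a difference of 1.83 (SE 0.16, limma adjusted p = 3.53e-08). Every sgKLF5 library was above every sgRosa library in both experiments.

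FOXA1 also rose in experiment 2 of the basal-like T3M-4 line, where it was 8.0, 8.07, 9.40 and 4.93 TPM with sgRosa and 20.7, 21.0, 19.4 and 19.8 TPM with sgKLF5, a difference of 1.33 (SE 0.14, limma adjusted p = 5.85e-07), which was 1.17 without the low sgRosa replicate 4. In its experiment 1, FOXA1 was 5.20 and 4.58 TPM with sgRosa and 15, 6.93, 19.9 and 18.3 TPM with sgKLF5, a difference of 1.35 (SE 0.41, limma adjusted p = 0.0996). The libraries of these groups did not overlap, and sgKLF5 replicate 2 was the low one. Without it the FOXA1 difference was 1.66 (limma adjusted p = 0.000300), and with libraries scaled by the median of ratios it was 1.57 (limma adjusted p = 0.00173). In BxPC-3 experiment 2, FOXA1 was 16.6, 13.7, 14.8 and 14.1 TPM with sgRosa and 21.0, 21.2, 20.7 and 21.1 TPM with sgKLF5, a smaller difference of 0.48 (SE 0.12, limma adjusted p = 0.00582).

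In the other 3 experiments the FOXA1 difference was not past the threshold. BxPC-3 experiment 1 had 29.0 and 27.8 TPM with sgRosa against 39.7, 38.3, 29.4 and 30.7 TPM with sgKLF5 (0.26, limma adjusted p = 0.280). SUIT-2 had 3.86, 7.41, 8.74 and 10.7 TPM against 11.9, 8.47, 13.2 and 11.7 TPM (0.56, SE 0.29, limma adjusted p = 0.384). In CFPAC-1, FOXA1 was 23.3, 47.4, 21.9 and 20.5 TPM with sgRosa and 37.5, 37.1 and 39.4 TPM with sgKLF5 (0.50, SE 0.21, limma adjusted p = 0.104). The high control was CFPAC-1 sgRosa replicate 2, the library closer to the sgKLF5 mean than to its own. Without it the FOXA1 difference in CFPAC-1 was 0.77 (limma adjusted p = 0.000192), and with median-of-ratios scaling of all libraries it was 0.63 (limma adjusted p = 0.0416).

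FOXA3 also rose in AsPC-1, from a much lower level. In experiment 1 it was 0.373 and 0.0931 TPM with sgRosa and 3.45, 2.74, 3.27, 3.66, 3.16 and 3.22 TPM with sgKLF5, a difference of 1.79 (SE 0.14, limma adjusted p = 8.8e-06). In experiment 3 it was 1.74, 1.99, 2.35 and 2.52 TPM with sgRosa and 9.18, 9.81, 9.35 and 6.82 TPM with sgKLF5, a difference of 1.63 (SE 0.18, limma adjusted p = 8.39e-07). In SUIT-2, FOXA3 had 9.32, 11.1, 11.5 and 10.4 TPM with sgRosa and 12.5, 12.8, 12.5 and 13.8 TPM with sgKLF5, groups that did not overlap but whose difference of 0.27 was not called. CFPAC-1 (0.05) and T3M-4 experiment 2 (0.10) showed smaller differences, also not called.

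GATA6 moved in opposite directions. In BxPC-3 experiment 2 it was 39.1, 37.6, 41.9 and 44 TPM with sgRosa and 22.1, 21.6, 23.3 and 22.8 TPM with sgKLF5, a difference of -0.83 (SE 0.10, limma adjusted p = 5.28e-06). In BxPC-3 experiment 1 the GATA6 difference was -0.37 (limma adjusted p = 0.0931, and 0.0284 with median-of-ratios scaling), with 28.5 and 27.8 TPM against 24.3, 23.9, 18.8 and 20.0 TPM. In AsPC-1 experiment 1, by contrast, GATA6 was 28.7 and 27.0 TPM with sgRosa and 47.4, 44.3, 42.8, 36.6, 39.0 and 38.1 TPM with sgKLF5, a rise of 0.55 (SE 0.10, limma adjusted p = 0.00321). AsPC-1 experiment 3 gave 37.0, 37.3, 35.7 and 34.5 TPM against 31.4, 43.5, 44.8 and 32.5 TPM, groups that overlapped (0.06). In T3M-4 experiment 2, GATA6 rose from 11.2, 10.7, 10.3 and 7.36 TPM to 12.7, 12.9, 13 and 13.8 TPM (0.39, SE 0.12, limma adjusted p = 0.0163), against a median of 0.10 over all genes. In T3M-4 experiment 1 the GATA6 difference was -0.09 (limma adjusted p = 0.890). GATA6 was also not called in SUIT-2 (0.25) or in CFPAC-1 (-0.25, limma adjusted p = 0.0686), and in CFPAC-1 it was past the threshold without sgRosa replicate 4 (-0.29, limma adjusted p = 0.0377). The difference between lines was not tested.

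FOXA2 was called only in BxPC-3 experiment 2 among the 6 tested comparisons, where it was 15.4, 15.2, 12.8 and 14.4 TPM with sgRosa and 26.1, 28.5, 20.2 and 23.9 TPM with sgKLF5, a rise of 0.73 (SE 0.15, limma adjusted p = 0.00109). In T3M-4 its differences were -0.54 and -0.27 and not called, and without T3M-4 experiment 2 sgRosa replicate 4 the FOXA2 difference was -0.34 (limma adjusted p = 0.0214). With median-of-ratios scaling it was -0.40 (limma adjusted p = 0.00245). In AsPC-1, FOXA2 stayed at or below 0.0864 TPM in all sgKLF5 libraries except experiment 1 replicate 6, which had 1.99 TPM. HNF4G rose in AsPC-1 experiment 1 from 12 and 8.11 TPM to 21.5, 23.0, 23.3, 15.1, 20.8 and 16.7 TPM (0.94, SE 0.19, limma adjusted p = 0.00421), and this call was lost without sgRosa replicate 2 (0.68, limma adjusted p = 0.0839). In experiment 3 HNF4G was -0.15 and not called.

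PDX1 fell in AsPC-1 experiment 3 from 8.86, 9.89, 8.16 and 7.80 TPM to 4.47, 6.05, 7.45 and 4.29 TPM (-0.58, SE 0.13, limma adjusted p = 0.00269). In experiment 1 of the same line the PDX1 difference was 0.08, from 6.10 and 4.90 TPM to between 5.08 and 6.79 TPM. PDX1 was lower but not called in SUIT-2 (-0.50) and CFPAC-1 (-0.41). GATA4 was called in 0 of its 7 tested comparisons, with differences between -0.18 and 0.31, and 0 of them had an unadjusted p below 0.05.

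Where a line had 2 KLF5 experiments, the difference between their effects was tested. In AsPC-1, 3 of 7 members differed, against 6.54% of all genes: GATA6 by 0.49 (limma adjusted p = 0.0148), HNF4G by 1.08 (limma adjusted p = 0.00275) and PDX1 by 0.67 (limma adjusted p = 0.0176), each higher in experiment 1 than in experiment 3. All 3 calls were lost without sgRosa replicate 2 of experiment 1, where 1 control library was then left (adjusted p between 0.122 and 0.244). The GATA6 and PDX1 calls were also lost without sgKLF5 replicate 1 or 4 of experiment 3 (limma adjusted p between 0.0507 and 0.0589) and in a fit of only the groups compared (limma adjusted p = 0.116 for GATA6 and 0.0939 for PDX1), and the PDX1 call with a replicate block (limma adjusted p = 0.144). In T3M-4 0 of 6 members differed, against 17.4% of all genes, and in BxPC-3 0 of 5, against 16.7%, with 0 and 2 members at an unadjusted p below 0.05. GATA6 in BxPC-3, at 0.46 (limma adjusted p = 0.0520), was past the threshold at a filter of 5 TPM (0.46, limma adjusted p = 0.0493), with median-of-ratios scaling (0.53, limma adjusted p = 0.00129), in a fit of only the groups compared (limma adjusted p = 0.0305), with a replicate block (0.61, limma adjusted p = 0.0228) and without experiment 1 sgKLF5 replicate 3 or experiment 2 sgRosa replicate 2 (limma adjusted p = 0.0289 and 0.0460). FOXA2 in BxPC-3 was so only in the fit of the groups compared (-0.54, limma adjusted p = 0.0499). In T3M-4, GATA6 (-0.80, limma adjusted p = 0.0119) and HNF4G (-0.97, limma adjusted p = 0.0131) were past it with the replicate block. FOXA1 differed by 0.53 in AsPC-1, 0.02 in T3M-4 and -0.22 in BxPC-3, none of them called.

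Genes that work with these factors were read from a fixed list of 20 other endodermal factors and a list of 24 genes known to be regulated by endodermal factors such as HNF4A, GATA or FOXA proteins. In AsPC-1 experiment 1 after KLF5 loss, 2 of 8 tested other factors rose and 1 fell, with 25.9% of all genes called. In experiment 3, 2 rose and 2 fell, with 27.8% of all genes called. The intestinal factor CDX2 rose by 1.21 and 0.79, and the nuclear receptor NR1I2 was lower by -0.88 and -1.30. Of the known targets, 3 of 7 rose and 2 fell in experiment 1, among them the brush-border protein VIL1 (1.68) and the aminopeptidase ANPEP (-0.84), and 2 of 7 rose and 2 fell in experiment 3, among them LGALS4 (-0.96) and CDH17 (-0.57).

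In SUIT-2, with 3.94% of all genes called, 1 of 6 known targets rose, SERPINA1 (1.61), and 2 fell, FABP1 (-2.11) and LGALS4 (-0.65). In CFPAC-1, with 16.2% of all genes called, 4 of 10 rose and 2 fell, among them APOH (1.39), FGB (1.38) and FGA (1.14), which encode plasma proteins. SERPINA1 rose in both T3M-4 experiments, by 1.88 and 1.31, and in experiment 2 it also rose with sgCDK1 (1.08) and sgRpa3 (1.08). HHEX, a foregut homeobox gene, rose in both BxPC-3 experiments (0.68 and 0.65), in T3M-4 experiment 2 (0.52), in CFPAC-1 (0.64) and in AsPC-1 experiment 1 (0.45). It was not called higher in AsPC-1 experiment 3, SUIT-2 or T3M-4 experiment 1. In BxPC-3 experiment 2, HHEX also rose with sgCDK1 (0.64) and was not called with sgRpa3. The median over the tested other factors was -0.01 and 0.02 in the AsPC-1 experiments and 0.17 in SUIT-2, beside 0.08, 0.02 and 0.18 over all genes.

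Knockout of RUVBL1 and RUVBL2 was set against the same sgRosa libraries as the other knockouts of its experiment. RUVBL1 loss lowered FOXA1 in AsPC-1 and CFPAC-1 and raised it in T3M-4, and it lowered FOXA2 in CFPAC-1 and T3M-4, while HNF4A in AsPC-1 was not called. Over 31 tests of members in RUVBL1 knockouts 5 rose and 10 fell, and over 25 tests in RUVBL2 knockouts 4 rose and 2 fell.

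**Figure D4:**
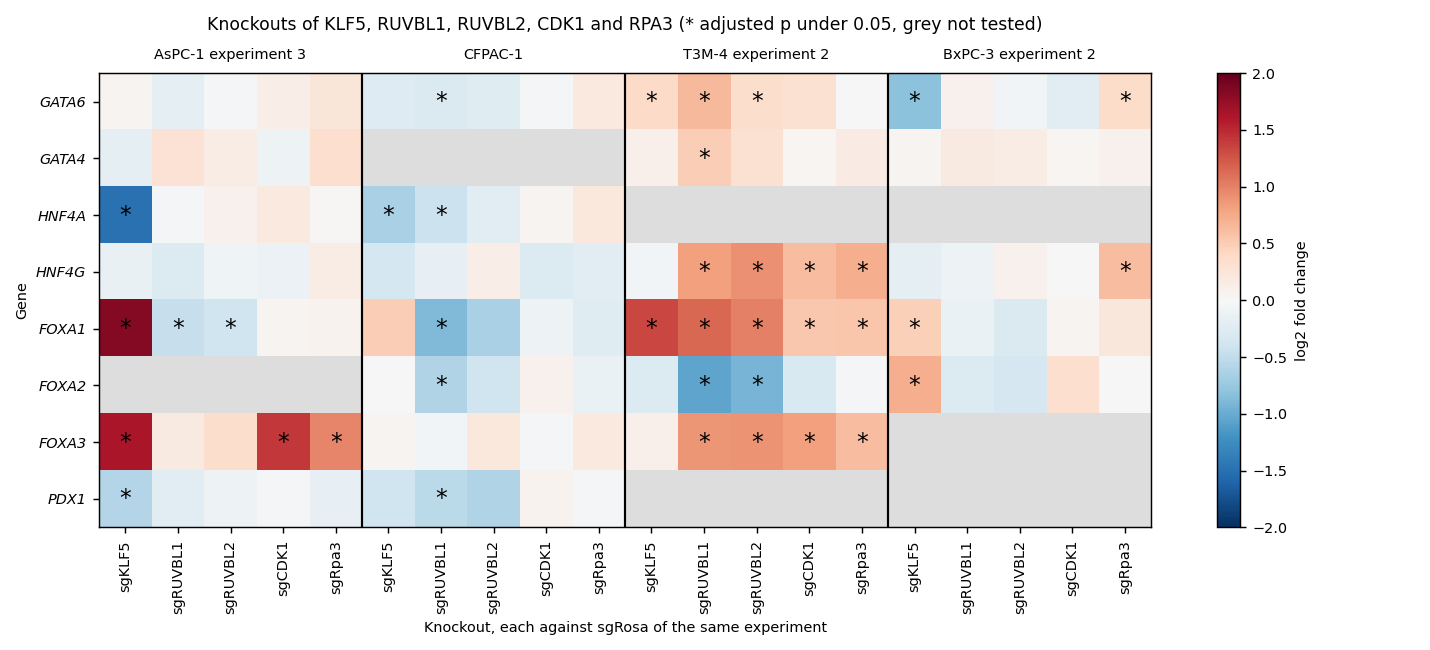
Log2 fold changes of the 8 factors (rows) in the 20 knockouts of AsPC-1, CFPAC-1, T3M-4 and BxPC-3 (columns) against sgRosa of the same experiment; the colour scale is the log2 fold change, a star marks an adjusted p below 0.05 and grey a factor that was not tested. The T3M-4 columns for RUVBL1 and RUVBL2 are positive except for FOXA2, at -1.06 and -0.92.

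By comparison, sgRUVBL1 gave 3 of 6 members called in AsPC-1 experiment 2 against 55.8% of all genes, 1 of 7 in experiment 3 against 51.9%, 5 of 7 in CFPAC-1 against 43.8%, 6 of 6 in T3M-4 against 60.5% and 0 of 5 in BxPC-3 against 16%, with 0 at an unadjusted p below 0.05. With sgRUVBL2, 1 of 7 members was called in AsPC-1 against 43.2%, 0 of 7 in CFPAC-1 against 12.1%, 5 of 6 in T3M-4 against 54.5% and 0 of 5 in BxPC-3 against 9.76%. At an unadjusted p below 0.05 there were 4 members in CFPAC-1 and 1 in BxPC-3 with sgRUVBL2. The AsPC-1 experiment 3 count with sgRUVBL1 depended on the scaling: with median-of-ratios scaling FOXA1 (-0.60), GATA6 (-0.35, limma adjusted p = 0.00141), HNF4A (-0.22, limma adjusted p = 0.0283), HNF4G (-0.45, limma adjusted p = 0.0199) and PDX1 (-0.39, limma adjusted p = 0.00837) were all called.

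HNF4A in AsPC-1 experiment 3 was 76.4, 66.9, 72.5 and 59.0 TPM with sgRUVBL1 and 71.6, 69.7, 78.0 and 78.5 TPM with sgRUVBL2, beside the sgRosa values of 63.6 to 75.4 TPM. Its differences of -0.04 (SE 0.10) and 0.08 (SE 0.10) were not called without that scaling. A test of both RUVBL knockouts against sgKLF5 in this experiment gave a higher HNF4A by 1.51 (SE 0.09, limma adjusted p = 9.97e-11). FOXA1 was 1.94, 1.59, 3.03 and 2.61 TPM with sgRUVBL1 and 2.41, 1.70, 2.93 and 2.73 TPM with sgRUVBL2, below or within the sgRosa range of 2.89 to 3.88 TPM, with differences of -0.47 (limma adjusted p = 0.0177) and -0.40 (limma adjusted p = 0.0483), against medians of 0.16 and 0.13 over all genes. Both FOXA1 calls are near the threshold, and leaving out 1 library ended each of them, with adjusted p up to 0.0762 and 0.139. AsPC-1 sgRUVBL2 replicate 2 stood apart, and without it FOXA3 rose by 0.55 (limma adjusted p = 0.00537).

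In AsPC-1 experiment 2, which has its own sgRosa libraries, FOXA1 fell with sgRUVBL1 from 2.45, 2.96, 4.21 and 3.11 TPM to 1.42, 1.33, 1.33 and 1.55 TPM (-0.78, SE 0.17, limma adjusted p = 0.000866). HNF4G fell from 11.9, 10.9, 18.8 and 14.0 TPM to 7.88, 8.25, 7.79 and 6.36 TPM (-0.78, SE 0.14, limma adjusted p = 0.000260). GATA6 fell from 21.3, 21.0, 26.4 and 24.5 TPM to 18.9, 17.9, 17.8 and 15.4 TPM (-0.39, SE 0.09, limma adjusted p = 0.00202). None of these groups overlapped. PDX1 was called only with median-of-ratios scaling (-0.27, limma adjusted p = 0.0434). FOXA3 was below the filter, at 0 to 0.526 TPM with sgRosa and 0.552 to 1.28 TPM with sgRUVBL1.

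In CFPAC-1, FOXA1 was 12.6, 13.9, 14.3 and 15.5 TPM with sgRUVBL1, below the 4 sgRosa libraries (-0.88, SE 0.19, limma adjusted p = 0.00189), and without sgRosa replicate 2 the FOXA1 difference was -0.61 (limma adjusted p = 0.000809). FOXA2 fell from 23.4, 26.1, 22.6 and 17.5 TPM to 11.5, 15, 15.1 and 15.6 TPM (-0.60, SE 0.12, limma adjusted p = 0.000893). GATA6 (-0.29, limma adjusted p = 0.0118), HNF4A (-0.43, limma adjusted p = 0.0269) and PDX1 (-0.54, limma adjusted p = 0.0221) fell too, in a comparison where the median of all genes was -0.20. These last 3 calls were lost with median-of-ratios scaling (GATA6 -0.08, HNF4A -0.23, PDX1 -0.37) and in a fit of only the groups compared (adjusted p between 0.0524 and 0.0841). With sgRUVBL2, FOXA1 was 13.7 and 19.9 TPM (-0.66, limma adjusted p = 0.0767) and PDX1 was 3.59 and 2.78 TPM (-0.60, limma adjusted p = 0.0868).

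In T3M-4, 5 members rose and FOXA2 fell with sgRUVBL1, where the median of all genes was 0.25. FOXA1 was 18.5, 18.8 and 16.1 TPM with sgRUVBL1 and 13.6, 17.5, 15.2 and 17.7 TPM with sgRUVBL2, all above the sgRosa libraries of 4.93 to 9.40 TPM (1.16, limma adjusted p = 5.08e-06, and 1.01, limma adjusted p = 1.02e-05). FOXA2 was 5.82, 4.57 and 5.42 TPM with sgRUVBL1 and 5.34, 6.30, 6.66 and 5.18 TPM with sgRUVBL2, all below the sgRosa libraries of 11.5, 12.1, 14.4 and 10.3 TPM (-1.06, SE 0.12, limma adjusted p = 1.11e-06, and -0.92, SE 0.11, limma adjusted p = 2.02e-06). The paralogues thus moved apart in the same libraries.

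HNF4G in T3M-4 was 4.35, 3.25, 4.44 and 3.93 TPM with sgRosa, 8.34, 8.85 and 6.41 TPM with sgRUVBL1 (0.83, limma adjusted p = 0.000113) and 8.62, 8.56, 6.58 and 10.1 TPM with sgRUVBL2 (0.92, limma adjusted p = 2.01e-05). FOXA3 was 0.751, 0.681, 1.06 and 0.734 TPM with sgRosa, 1.98, 2.14 and 2.92 TPM with sgRUVBL1 (0.88, limma adjusted p = 2.71e-05) and 2.43, 2.18, 2.11 and 2.81 TPM with sgRUVBL2 (0.90, limma adjusted p = 1.02e-05). GATA6 rose by 0.64 (limma adjusted p = 0.000359) with sgRUVBL1, from 7.36 to 11.2 TPM in sgRosa to 14.7, 17 and 15.9 TPM, and by 0.36 (limma adjusted p = 0.0156) with sgRUVBL2. GATA4 rose with sgRUVBL1 (0.50, limma adjusted p = 0.00898). Median-of-ratios scaling ended the GATA4 call (0.32, limma adjusted p = 0.0501) and the GATA6 call with sgRUVBL2 (0.16).

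In BxPC-3, members differed by -0.27 to 0.17 with sgRUVBL1 and by -0.33 to 0.16 with sgRUVBL2, and every knockout group overlapped sgRosa. Each sgRUVBL2 library lay nearer to the sgRUVBL1 mean than to its own group, and replicate 3 lay furthest from its group. Without replicate 3 the sgRUVBL2 differences ran from -0.08 to 0.27 and 0 were called. Without sgRUVBL2 replicate 2 FOXA1 was called lower (-0.43, limma adjusted p = 0.0350). Other endodermal factors and known targets were also called in RUVBL1 and RUVBL2 knockouts. NR5A2, a nuclear receptor of pancreas and gut, rose in AsPC-1 experiment 3 by 0.76 and 0.83. SOX9, a duct progenitor factor, rose in T3M-4 by 1.43 and 1.05 but fell in CFPAC-1 with sgRUVBL1 (-0.57). SERPINA1 in T3M-4 rose by 2.14 with either knockout, and by 1.08 with each of sgCDK1 and sgRpa3 in the same experiment. In T3M-4, 1 of 4 tested other factors and 2 of 3 known targets rose with each RUVBL knockout, and 0 fell. The shares of all genes called there were 60.5% and 54.5%. In CFPAC-1, ONECUT2 fell by 1.01 with sgRUVBL1, where 3 of 8 tested other factors fell and 0 rose, against 43.8% of all genes. VIL1 fell in AsPC-1 by 0.60 in experiment 2 and by 0.71 in experiment 3 with sgRUVBL1. In experiment 3 APOM fell too (-0.89), while ALB, which encodes albumin, rose from a mean of 0.184 to 3.21 TPM (1.81). With sgRUVBL1 there, 1 of 7 tested known targets rose and 4 fell, against 51.9% of all genes. Of the other factors, 2 of 8 rose and 1 fell.

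A direct comparison of the RUVBL1 and RUVBL2 knockouts, pooled as 1 mean, with the KLF5 knockout of the same experiment was added after the data had been seen. FOXA1 was lower than with sgKLF5 in AsPC-1 (-2.26, SE 0.14, limma adjusted p = 1.16e-10), BxPC-3 (-0.69, SE 0.11, limma adjusted p = 5.72e-05) and CFPAC-1 (-1.27, SE 0.19, limma adjusted p = 0.000273), and in T3M-4 the difference was -0.25 (limma adjusted p = 0.0931). The T3M-4 difference was called with median-of-ratios scaling (-0.37, limma adjusted p = 0.00183) and in a fit of only the groups compared (-0.25, limma adjusted p = 0.0155). FOXA2 was lower in the 3 lines where it was tested, T3M-4 (-0.72), BxPC-3 (-1.03) and CFPAC-1 (-0.49). FOXA3 was lower than with sgKLF5 in AsPC-1 (-1.37, limma adjusted p = 5.21e-07) and higher in T3M-4 (0.79, limma adjusted p = 1.22e-05).

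Other differences from sgKLF5 were higher HNF4G in T3M-4 (0.93), higher GATA6 in BxPC-3 (0.85) and, in AsPC-1, higher PDX1 (0.42) and GATA4 (0.40). The GATA4 difference was lost under other settings, with 0.30 (limma adjusted p = 0.0618) under median-of-ratios scaling. In all, 5 of 7 members differed in AsPC-1 against 61.2% of all genes, 3 of 6 in T3M-4 against 49.7%, 3 of 5 in BxPC-3 against 47.6% and 2 of 7 in CFPAC-1 against 28.3%. In T3M-4 and CFPAC-1 these shares are close to those of all genes. HNF4A in CFPAC-1 was higher than with sgKLF5 by 0.33 and not called.

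CDK1, the mitotic kinase, and RPA3, a subunit of the single-stranded DNA binding complex of replication, are genes whose loss stops proliferation. In AsPC-1 neither CDK1 mRNA with sgCDK1 (-0.19, limma adjusted p = 0.202) nor RPA3 mRNA with sgRpa3 (-0.44, limma adjusted p = 0.0664) was called lower. FOXA3 rose with sgCDK1 in AsPC-1 from 1.74, 1.99, 2.35 and 2.52 TPM to 6.34 and 8.43 TPM (1.41, limma adjusted p = 0.000202), and with sgRpa3 to 5.57 and 4.77 TPM (0.97, limma adjusted p = 0.0420). In T3M-4 experiment 2, FOXA3 was 2.3 and 2.07 TPM with sgCDK1 (0.82, limma adjusted p = 0.00178) and 2.02 and 1.56 TPM with sgRpa3 (0.62, limma adjusted p = 0.00689). HNF4G there rose to 7.08 and 6.22 TPM with sgCDK1 (0.62, limma adjusted p = 0.0157) and to 6.11 and 8.57 TPM with sgRpa3 (0.73, limma adjusted p = 0.00408), and FOXA1 rose by 0.55 with each (limma adjusted p = 0.0337 and 0.0245). In BxPC-3 experiment 2, sgRpa3 raised GATA6 (0.37, limma adjusted p = 0.0375), to 52.7 and 53.0 TPM, and HNF4G (0.62, limma adjusted p = 0.0136), to 9.56 and 8.27 TPM. These groups hold 2 libraries each, and all of these calls except FOXA3 with sgCDK1 in AsPC-1 were lost without 1 of the libraries, under another setting or both.

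The shares of all genes called with sgCDK1 were 16.7% in AsPC-1 (1 of 7 members), 0% in CFPAC-1 (0 of 7, with 0 at an unadjusted p below 0.05), 16.8% in T3M-4 (3 of 6) and 5.82% in BxPC-3 (0 of 5, with 0 at an unadjusted p below 0.05). With sgRpa3 they were 0.654% in AsPC-1 (1 of 7), 11.6% in CFPAC-1 (0 of 7, with 0 at an unadjusted p below 0.05), 0% in T3M-4 experiment 1 (0 of 5, with 0), 24.6% in T3M-4 experiment 2 (3 of 6), 0.307% in BxPC-3 experiment 1 (0 of 5, with 1) and 20.8% in BxPC-3 experiment 2 (2 of 5). The counts are small. No member fell in these sgCDK1 or sgRpa3 comparisons, but with median-of-ratios scaling FOXA2 fell with sgCDK1 in T3M-4 experiment 2 (-0.46, limma adjusted p = 0.0101), where the median of all genes had been 0.15.

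The RUVBL1 and RUVBL2 knockouts, as 1 mean, were also compared with the mean of the CDK1 and RPA3 knockouts. FOXA2 was lower in all 3 lines in which it was tested, T3M-4 (-0.83, limma adjusted p = 2.88e-06), CFPAC-1 (-0.48, limma adjusted p = 0.00219) and BxPC-3 (-0.47, limma adjusted p = 0.0151). FOXA1 was lower in AsPC-1 (-0.50, limma adjusted p = 0.00480), CFPAC-1 (-0.59, limma adjusted p = 0.0117) and BxPC-3 (-0.35, limma adjusted p = 0.0259) and higher in T3M-4 (0.53, limma adjusted p = 0.00167). GATA6 was lower in AsPC-1 (-0.28) and CFPAC-1 (-0.35) and higher in T3M-4 (0.34). FOXA3 was lower in AsPC-1 (-0.92, limma adjusted p = 7e-05), and HNF4A (-0.45) and PDX1 (-0.59) were lower in CFPAC-1.

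Against 52.7% of all genes in AsPC-1, 3 of 7 members differed in this comparison, and the counts were 3 of 6 against 46.8% in T3M-4, 2 of 5 against 26.5% in BxPC-3 and 5 of 7 against 48.8% in CFPAC-1. In CFPAC-1 the median of all genes was -0.21, and with median-of-ratios scaling the calls of GATA6 (-0.12), HNF4A (-0.23), FOXA1 (-0.36) and PDX1 (-0.39) were lost there. The FOXA1 and FOXA2 calls in BxPC-3 were lost without sgCDK1 replicate 1 (adjusted p = 0.134 and 0.0857). Without sgRUVBL2 replicate 3 HNF4G was called there as well (-0.35, limma adjusted p = 0.0436).

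In AsPC-1, knockout of CHD4, an ATPase of the NuRD chromatin remodelling complex, moved 5 of 7 tested members, against 50% of all genes. PDX1 fell from 9.07, 9.97, 8.76 and 8.09 TPM to 2.06, 2.37, 2.42 and 1.77 TPM (-1.66, SE 0.11, limma adjusted p = 2.12e-07). HNF4G fell from 25.0, 26.2, 25.0 and 22.7 TPM to 8.10, 5.66, 10.1 and 7.70 TPM (-1.55, SE 0.13, limma adjusted p = 1.97e-06). Both were far outside the range of their controls. Smaller decreases were seen for GATA6 (-0.35, limma adjusted p = 0.000479), from between 26.9 and 28.4 TPM to between 20.4 and 22.1 TPM, and for HNF4A (-0.34, limma adjusted p = 0.00660), from between 48.9 and 53.7 TPM to between 33.8 and 45.2 TPM.

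FOXA3 rose with sgCHD4 from 0.709, 0.518, 0.579 and 0.682 TPM to 1.99, 2.50, 3.07 and 2.53 TPM (1.11, SE 0.12, limma adjusted p = 1.65e-05), while FOXA1 (0.10) and GATA4 (-0.22) were not called. CHD4 mRNA itself was higher, not lower, in the sgCHD4 libraries (0.28, limma adjusted p = 0.0494). With 50% of all genes called, 2 of 9 other endodermal factors rose and 5 fell, among them NR1I2 (-1.44), CDX2 (-1.29) and MNX1 (-0.98). Of the known targets 3 of 7 rose and 3 fell, among them CDH17 (-1.17) and SERPINA1 (1.26). Knockout of SERPINB5, which encodes maspin, an epithelial serpin, moved 0 of 6 members against 0.0343% of all genes, with differences between -0.15 and 0.11 and 0 members at an unadjusted p below 0.05.

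Inhibition of RUVBL1/2 with CB-6644 for 24 h raised FOXA3 in the empty-vector cells of both pancreatic lines, in T84 and in RH30, and lowered FOXA1 in T84, H1048 and A375 and GATA6 in T84 and H1048. In AsPC-1 EV cells FOXA3 was 4.14, 3.92 and 4.34 TPM with CB-6644, above the DMSO libraries of 2.69 (EV), 2.2 (A62T) and 1.92 TPM (dF109), a difference of 0.66 (SE 0.10, limma adjusted p = 0.000125). HNF4G was 14.9, 14.4 and 15.7 TPM with CB-6644 and 17.7, 21.6 and 23.6 TPM in the same DMSO order (-0.45, SE 0.09, limma adjusted p = 0.000893). HNF4A was 46.0, 44 and 53.2 TPM against 55.7, 49.2 and 44.3 TPM (-0.06) and overlapped. PDX1 was 3.70, 3.75 and 4.22 TPM against 5.54, 4.52 and 4.45 TPM, groups that did not overlap but whose difference of -0.25 was not called (limma adjusted p = 0.0744), and GATA6 differed by -0.12. The median of all genes was 0.19, and with median-of-ratios scaling HNF4A (-0.32, limma adjusted p = 0.000302), GATA6 (-0.38, limma adjusted p = 0.000113) and PDX1 (-0.47, limma adjusted p = 0.000441) were called lower. Against the EV DMSO library alone, which is 1 library and so gives values without a test here, the differences were 0.48 for FOXA3, -0.23 for HNF4G and -0.35 for GATA6, at 21.3, 21.7 and 22.4 TPM against 28.0 TPM.

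**Figure D5:**
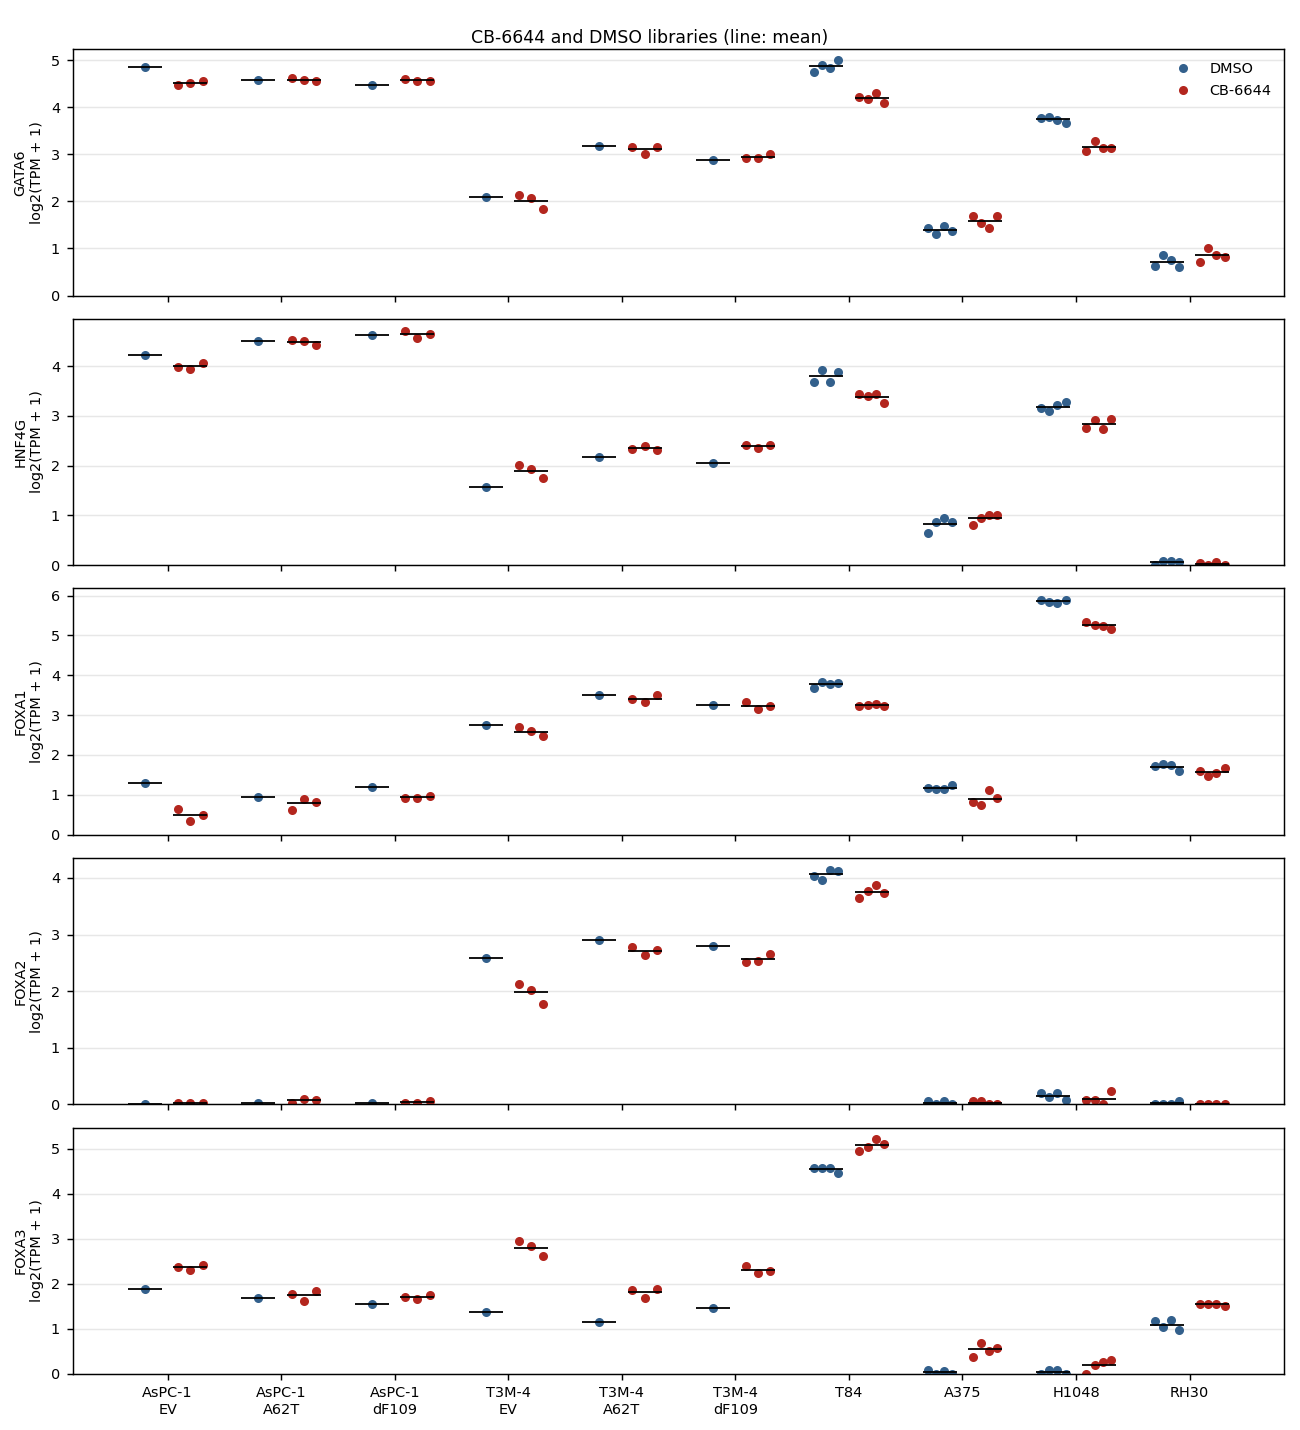
GATA6, HNF4G, FOXA1, FOXA2 and FOXA3 in each DMSO and CB-6644 library: the vertical axis is log2(TPM + 1), the horizontal axis gives the 6 vector groups of AsPC-1 and T3M-4 and the 4 other lines, and each point is a library. FOXA3 is higher with CB-6644 in both EV groups, T84 and RH30, and the T3M-4 EV group is low for GATA6 in DMSO as well, at 3.25 TPM.

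In T3M-4 EV cells FOXA3 was 6.69, 6.10 and 5.12 TPM with CB-6644 against 1.59 (EV), 1.23 (A62T) and 1.75 TPM (dF109) with DMSO, a difference of 1.47 (SE 0.12, limma adjusted p = 1.54e-05). FOXA2 fell to 3.38, 3.06 and 2.42 TPM, below 4.98, 6.48 and 5.94 TPM (-0.78, SE 0.12, limma adjusted p = 0.000678). Against the EV DMSO library alone these differences were 1.42 and -0.60, values without a test. GATA6 (-0.71, limma adjusted p = 0.0265) and FOXA1 (-0.58, limma adjusted p = 0.0165) were also called, but GATA6 was 3.36, 3.18 and 2.59 TPM with CB-6644 and 3.25 TPM in EV DMSO, against 8.07 and 6.37 TPM in DMSO of the variants. Against EV DMSO alone GATA6 differed by -0.08 and FOXA1 by -0.17. Both calls were lost in a fit of only the groups compared (limma adjusted p = 0.140 and 0.118), and GATA6 also without EV CB-6644 replicate 2 or 3 or the A62T or dF109 DMSO library (limma adjusted p between 0.0616 and 0.0955) and FOXA1 without the dF109 DMSO library (limma adjusted p = 0.0583). Without EV CB-6644 replicate 1 or 3, FOXA3 differed by 1.39 and 1.56 and FOXA2 by -0.86 and -0.68, all called. The EV and A62T DMSO libraries of T3M-4 lay 2.86 and 2.78 times as far from the pooled DMSO mean as the median library of the fit lay from its group.

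In the cells carrying a resistance variant, 0 of 5 members were called in AsPC-1 A62T against 12.7% of all genes and 0 of 5 in AsPC-1 dF109 against 33.4%, with 0 and 1 members at an unadjusted p below 0.05. The AsPC-1 EV count was 2 of 5 against 64.4%. For T3M-4 the counts were 4 of 6 in EV against 34.3%, 2 of 6 in A62T against 50% and 2 of 6 in dF109 against 37.6%. FOXA3 rose in T3M-4 A62T, with 2.62, 2.22 and 2.69 TPM (0.48, limma adjusted p = 0.0114), and in dF109, with 4.22, 3.73 and 3.86 TPM (0.97, limma adjusted p = 0.00116). HNF4G rose in A62T (0.41, limma adjusted p = 0.0372) and dF109 (0.45, limma adjusted p = 0.0319). The medians of all genes were 0.33 and 0.29 there, and with median-of-ratios scaling HNF4G differed by 0.11 and 0.19, and FOXA3 by 0.22 in A62T, none of them called. The same scaling called FOXA2 lower in A62T (-0.38, limma adjusted p = 0.0108) and dF109 (-0.48, limma adjusted p = 0.00352) and GATA6 lower in AsPC-1 dF109 (-0.25, limma adjusted p = 0.00873). Against the single DMSO library of the same vector, as values without a test, FOXA3 differed by 0.65 in T3M-4 A62T and 0.84 in dF109, and HNF4G by 0.17 and 0.33.

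A direct test of EV cells against the variant cells, all in CB-6644, gave in AsPC-1 a lower HNF4G (-0.57, SE 0.08, limma adjusted p = 7.15e-05), a higher FOXA3 (0.64, SE 0.09, limma adjusted p = 6.97e-05) and a lower PDX1 (-0.29, limma adjusted p = 0.0253), 3 of 5 members against 55% of all genes. In T3M-4, FOXA3 was higher (0.74, SE 0.11, limma adjusted p = 0.000481) and GATA6 (-1.02), HNF4G (-0.47), FOXA1 (-0.74) and FOXA2 (-0.67) were lower, 5 of 6 members against 53.9%, with a median of -0.25 over all genes. The FOXA3 libraries of EV and variant cells did not overlap in either line. Each vector has 1 DMSO library, so a difference between cell populations before treatment and a difference in response cannot be told apart by a test.

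T84, the colorectal line, had 5 of 7 members called against 71.4% of all genes. GATA6 fell from 25.9, 28.6, 27.5 and 31.2 TPM in DMSO to 17.6, 17.1, 18.8 and 16.1 TPM in CB-6644 (-0.67, SE 0.07, limma adjusted p = 3.04e-07). FOXA1 fell from 11.9, 13.3, 12.8 and 12.9 TPM to 8.44, 8.59, 8.72 and 8.40 TPM (-0.53, SE 0.07, limma adjusted p = 3.2e-06). These groups were well separated. HNF4G (-0.41, limma adjusted p = 0.000224) and FOXA2 (-0.32, limma adjusted p = 0.000733) fell, while FOXA3 rose from 22.9, 22.7, 22.7 and 20.9 TPM to 29.8, 31.9, 35.9 and 33.2 TPM (0.53, SE 0.06, limma adjusted p = 1.73e-06). HNF4A was 68.7, 81.4, 70.5 and 66.0 TPM in DMSO and 75.9, 75.3, 72.4 and 67.7 TPM in CB-6644 (0.03, limma adjusted p = 0.707), and relative to the median of all genes, which was 0.13, its direction turned: under median-of-ratios scaling HNF4A differed by -0.16 (limma adjusted p = 0.0116).

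In H1048, 3 of 5 members were called against 77.9% of all genes. GATA6 fell from 12.7, 12.8, 12.3 and 11.7 TPM to 7.34, 8.79, 7.72 and 7.77 TPM (-0.59, SE 0.06, limma adjusted p = 2.79e-06), FOXA1 from 58.7, 56.0, 55.7 and 58.0 TPM to 39.7, 37.1, 36.7 and 34.9 TPM (-0.61, SE 0.04, limma adjusted p = 6.71e-08) and HNF4G by 0.35 on the log2 scale (limma adjusted p = 0.000567). PDX1, at 8.50 to 10.1 TPM in DMSO and 8.99 to 10.4 TPM in CB-6644, was not called (0.08), and GATA4 was called lower only with median-of-ratios scaling (-0.31, limma adjusted p = 0.0108). The DMSO and CB-6644 libraries of GATA6, FOXA1 and HNF4G did not overlap.

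A375, a melanoma line, had 3 of 4 members called against 81.1% of all genes. PDX1 rose from 0.583, 0.679, 0.590 and 0.523 TPM to 1.65, 1.96, 1.90 and 1.48 TPM (0.78, SE 0.09, limma adjusted p = 7.4e-06). GATA4 fell from 6.69, 6.81, 7.72 and 7.72 TPM to 6.18, 6.21, 5.92 and 6.22 TPM (-0.20, limma adjusted p = 0.00804). FOXA1 fell by 0.28 (limma adjusted p = 0.0210), from between 1.21 and 1.37 TPM to between 0.660 and 1.19 TPM, a call lost without CB-6644 replicate 1 or 2 or DMSO replicate 4 (adjusted p up to 0.0621). FOXA3 in A375 was below the filter and not tested, at 0 to 0.0517 TPM in DMSO and 0.302, 0.614, 0.414 and 0.493 TPM in CB-6644. In RH30, 1 of 2 members was called against 77.7%: FOXA3 rose from 1.24, 1.06, 1.28 and 0.944 TPM to 1.94, 1.92, 1.91 and 1.84 TPM (0.45, SE 0.09, limma adjusted p = 0.000489), and FOXA1 was not called (-0.13) except with median-of-ratios scaling (-0.24, limma adjusted p = 0.0153). In these 4 lines most genes were called, so the share of members called is not above that of all genes.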

How the data were processed

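RNA-seq of poly-A selected RNA was measured in 183 libraries of 9 human cancer cell lines. The authors pseudoaligned single-end reads to hg38 transcripts with kallisto and calculated TPM with tximport. They also removed transcripts of low abundance for their differential expression analysis. The limit, and whether this removal also preceded the TPM, are not given in the sources used here. The deposited values are TPM per gene and library in 8 tables, with each library scaled to the same total. TPM keeps no read counts, so the depth per library is unknown and no count test was run. The groups were taken from the GEO labels.

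The 8 members, the other gene lists and the markers were chosen with earlier results of these data known. TPM were analysed as log2(TPM + 1) with limma 3.58.1 in R 4.3.3, using an empirical Bayes variance trend, after genes that averaged below 1 TPM across the fitted libraries had been set aside. All libraries of a line and experiment entered 1 fit, and p-values were adjusted by the Benjamini-Hochberg method over all genes tested, with a threshold of 0.05. In AsPC-1 and T3M-4 vector cells the 3 DMSO libraries were pooled as the control. The comparison of RUVBL1 and RUVBL2 with KLF5 knockouts was added after the data had been seen. All members are named, and other list genes only where called, the 3 with the largest change per list and comparison. The fits were tested on simulated data, in which only genes well above the 1 TPM filter were given a change. The shares called thus do not cover members near 1 TPM. The sgCDK1 and sgRpa3 comparisons and the vector cells were not simulated. Of genes given a log2 change of 1, 97% were called in AsPC-1 experiment 3, 95% in BxPC-3 experiment 2 and 99% in T84. The KLF5 comparisons of SUIT-2 and T3M-4 experiment 1 called 16% and 4% of them, and 0% of genes given a change of 0.5. A member not called in SUIT-2 or T3M-4 experiment 1 is thus no sign of an unchanged level. Alternatives were a pseudocount of 0.1, no filter, a filter at 5 TPM, median-of-ratios scaling, a fit of only the groups compared, a replicate block, each library left out, and the DMSO library of the same vector. Labelled replicate numbers did not pair the samples: of 19 comparisons with 3 or more pairs, 0 had every correlation above 0.1. Coordinates are from the hg38 annotation and promoter sequences from RefSeq.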

Additional observations from a re-analysis of the deposited data

Results flagged for a closer look

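Of 180 member and group pairs of 4 to 10 libraries in which some library reached 1 TPM, 8 held a library set apart by a gap that is large for its group, where chance at 5% gives 9. Some touch lines whose results are described above: FOXA1 was 47.4 TPM in CFPAC-1 sgRosa replicate 2 against 23.3 TPM in the nearest library, PDX1 was 5.97 TPM in SUIT-2 sgRosa replicate 1 against 11.8 TPM, and FOXA2 was 1.99 TPM in AsPC-1 experiment 1 sgKLF5 replicate 6 against 0.0671 TPM. GATA4 was low in AsPC-1 experiment 3 sgRUVBL1 replicate 3 at 2.17 TPM (nearest 2.31 TPM) and in A375 CB-6644 replicate 3 at 5.92 TPM (nearest 6.18 TPM). FOXA2 was low in CFPAC-1 sgRUVBL1 replicate 1 at 11.5 TPM (nearest 15 TPM), FOXA3 was low in T84 DMSO replicate 4 at 20.9 TPM (nearest 22.7 TPM), and PDX1 was high in AsPC-1 experiment 2 sgSERPINB5 replicate 1 at 8.24 TPM (nearest 5.90 TPM).

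The test of EV against variant cells in CB-6644 differed for HNF4G (-0.57), FOXA3 (0.64) and PDX1 (-0.29) in AsPC-1 and for GATA6 (-1.02), HNF4G (-0.47), FOXA1 (-0.74), FOXA2 (-0.67) and FOXA3 (0.74) in T3M-4. In DMSO, GATA6 was 3.25 TPM in T3M-4 EV against 8.07 TPM in A62T and 6.37 TPM in dF109, FOXA1 was 5.78 TPM against 10.3 and 8.47 TPM, and HNF4G was 1.98 TPM against 3.53 and 3.18 TPM.

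The effect of KLF5 loss in AsPC-1 differed between experiments 1 and 3 for GATA6 (0.49), HNF4G (1.08) and PDX1 (0.67).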

How the results depend on the processing

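Of 110 member calls, 54 were tested and held under every alternative, the filter at 5 TPM included. By leaving out 1 library 31 were lost, under another setting 30, and 32 were not tested at a filter of 5 TPM. These last 3 counts overlap. A call not tested at 5 TPM is not among the 54, even where no alternative ended it, as for FOXA3 with sgKLF5 in AsPC-1. The only change of direction past the threshold was HNF4A in T84 with CB-6644, -0.16 under median-of-ratios scaling. Among counts of called members, sgCDK1 (4) became 2 at 5 TPM and 1 in a fit of only the groups compared, sgRpa3 (6) became 3 in that fit, CB-6644 in EV cells (6) became 3 at 5 TPM, CB-6644 in variant cells (4) became 0 at 5 TPM, 2 in the fit of only the groups compared and 1 with the DMSO of the same vector, EV against variants (8) became 3 at 5 TPM, and the difference between KLF5 experiments (3) became 5 under scaling and 5 with a replicate block. The filter at 5 TPM tests fewer members.

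Leaving out 1 library gave 14 to 16 calls for sgKLF5, 13 to 16 for sgRUVBL1, 5 to 9 for sgRUVBL2, 2 to 4 for sgCDK1, 4 to 6 for sgRpa3, 5 to 5 for sgSERPINB5 and sgCHD4, 4 to 7 for CB-6644 in EV cells, 2 to 6 in variant cells, 7 to 9 for EV against variants, 11 to 13 in the 4 other lines, 11 to 14 for RUVBL1/2 against CDK1/RPA3, 0 to 4 for the difference between KLF5 experiments (0 without AsPC-1 experiment 1 sgRosa replicate 2) and 13 to 15 for RUVBL1/2 against KLF5. Where a group was left with 1 library, as with the DMSO of the same vector, it was assumed to vary like the other groups of its fit.

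The replicate numbers are only names here, and with the replicate block 18 members were called for sgKLF5, 15 for sgRUVBL1 and 7 for sgRUVBL2. No paired analysis was possible because the DMSO libraries of the vector cells carry no replicate number, for CB-6644 against DMSO in those cells. TPM give no depth, so members near 1 TPM have an unknown counting error. The cause of these shifts was not tested.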

Other observations

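CB-6644 moved other endodermal genes in the lines where the 8 factors were described. In T84, 6 of 10 tested other endodermal factors fell and 1 rose, and 4 of 6 known targets rose and 1 fell (71.4% of all genes were called). CDX1 and CDX2, intestinal homeobox factors, fell from a mean of 137 to 62.9 TPM (-1.11) and from 90.5 to 53.1 TPM (-0.76), and FABP1, a fatty acid binding protein, fell from 557 to 223 TPM (-1.32), while the peptidase DPP4 rose (0.54). In AsPC-1 EV cells, where 64.4% of all genes were called, 5 of 8 other factors fell and 2 rose, among them CDX2 (-0.85) and NR1I2 (-0.58). There 5 of 8 known targets rose, among them ALB from 0.293 to 4.23 TPM (2.02) and ANPEP (0.81).

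In H1048, where 77.9% of all genes were called, 6 of 12 other factors fell and 4 rose. ALB rose from 0.700 to 9.43 TPM (2.62), the iron carrier TF from 0.435 to 4.03 TPM (1.81) and the lipid transfer protein MTTP from 0.549 to 2.80 TPM (1.29). SOX9 fell in H1048 (-0.71), A375 (-0.82) and RH30 (-0.86). In T3M-4 EV cells SOX9 was 5.67 TPM with CB-6644 against 19.3 TPM in the pooled DMSO libraries (-1.48, SE 0.37). In T3M-4 A62T cells with CB-6644 it was higher than the same pool, at 35.0 TPM (1.01). With 1 DMSO library per vector in AsPC-1 and T3M-4, a difference between vector cells and a response to CB-6644 cannot be told apart. The differences named here are limma differences with an adjusted p below 0.05.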
